A study of Mus musculus with 6 samples.

Results

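Igfbp4, Actn1, Dapl1, Nsg2, Cd24a, Ldhb, Themis, Sox4 and Ctss are 9 genes whose transcripts are used to describe stages and subsets of naive T cells. They were chosen by symbol, and the 9 symbols each matched 1 Ensembl identifier among the 55487 listed for every library. All 9 passed the filter on low counts that left 12486 genes for testing. The libraries hold polyadenylated RNA of naive CD4+ T cells prepared freshly from spleen (3 libraries) or from mesenteric lymph node (mLN, 3 libraries) of untreated WT mice of the strain C57BL6/J. Every library therefore shares genotype, strain and the absence of a treatment, and the tissue is the only labelled difference. The age of the mice, the number pooled per library and the sort that defined a naive cell are not stated in the labels. Whether replicates are different animals is likewise unstated, so a p-value here reflects library-to-library spread only, which may be technical.

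A naive CD4+ T cell has left the thymus, has not met its antigen and recirculates between spleen and lymph nodes. The youngest of these cells, the recent thymic emigrants, still carry traces of the thymocyte program such as Sox4 and Cd24a, which fade as the cells mature. Transcripts such as Igfbp4, Actn1, Dapl1 and Nsg2 are used as markers of resting naive cells in single-cell atlases of T cells. Ctss belongs mainly to antigen-presenting cells, although T cells transcribe it too.

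Rounded counts totalled between 13205487 and 20054199 per library, and 3 counts corresponded to between 0.150 and 0.227 CPM, which is counts scaled to a library total of 1000000. Genes of T cell identity summed to between 4345 and 4483 CPM in the spleen libraries and between 3957 and 4085 CPM in the mLN libraries, with Cd4 averaging 929 and 890 CPM. Neutrophil markers summed to between 45.4 and 49.6 CPM in the spleen libraries and to between 0.150 and 1.63 CPM in the mLN libraries. Monocyte and macrophage markers summed to between 51.1 and 54.8 CPM in spleen and between 13.3 and 14.3 CPM in mLN. B cell markers summed to between 510 and 548 CPM in spleen and between 349 and 376 CPM in mLN, with Ighm alone averaging 487 and 339 CPM. In these bulk libraries fewer cells of a type and less RNA per cell cannot be told apart.

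The promoters of the 2 members called higher in mLN and of the 2 lower members with the smallest p are shown first, so that the genes called in opposite directions can be set side by side. Each window runs from 250 bases before the start of transcription to 50 bases after it, written 5′ to 3′ on the strand of the gene, and comes from RefSeq on GRCm38.p6. The windows are chr11:99040994-99041293 (plus strand) for Igfbp4, chr12:80260314-80260613 (minus strand) for Actn1, chr2:59484403-59484702 (plus strand) for Dapl1 and chr3:95526536-95526835 (plus strand) for Ctss. Capitals mark every match to the motifs searched on both strands, which were GTAAACA (bound by FOXO factors), CTTTGAT (TCF/LEF), GGGCGGG (KLF and SP factors), AACAAAG (SOX), TGANTCA (AP-1), CCGGAAG (ETS) and TATAAA (the TATA box, added after the sequences had been seen).
Igfbp4: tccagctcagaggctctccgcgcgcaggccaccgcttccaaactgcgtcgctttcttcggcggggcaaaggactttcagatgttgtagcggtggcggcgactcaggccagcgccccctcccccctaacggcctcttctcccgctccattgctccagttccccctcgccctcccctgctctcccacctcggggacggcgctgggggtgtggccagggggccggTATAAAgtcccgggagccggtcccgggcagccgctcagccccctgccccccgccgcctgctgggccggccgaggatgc
Actn1: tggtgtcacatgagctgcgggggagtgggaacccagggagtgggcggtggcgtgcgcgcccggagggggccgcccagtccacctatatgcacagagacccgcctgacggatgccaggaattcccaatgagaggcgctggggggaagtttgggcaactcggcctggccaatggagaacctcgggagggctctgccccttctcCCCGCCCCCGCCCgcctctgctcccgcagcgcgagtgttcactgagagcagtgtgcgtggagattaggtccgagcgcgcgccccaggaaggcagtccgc
Dapl1: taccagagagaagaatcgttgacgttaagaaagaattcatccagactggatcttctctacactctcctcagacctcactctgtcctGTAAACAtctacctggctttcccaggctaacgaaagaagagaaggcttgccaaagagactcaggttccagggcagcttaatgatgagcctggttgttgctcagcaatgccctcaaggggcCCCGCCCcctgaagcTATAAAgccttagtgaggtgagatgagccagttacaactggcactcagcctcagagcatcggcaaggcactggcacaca
Ctss: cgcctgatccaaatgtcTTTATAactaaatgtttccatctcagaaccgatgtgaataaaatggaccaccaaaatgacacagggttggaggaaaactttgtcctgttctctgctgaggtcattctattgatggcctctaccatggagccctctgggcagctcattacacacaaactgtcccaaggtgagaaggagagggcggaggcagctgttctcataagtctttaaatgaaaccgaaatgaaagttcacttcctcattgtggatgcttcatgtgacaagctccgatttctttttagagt

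The Igfbp4 window was 71.3% G or C with 27 CpG dinucleotides and the Actn1 window was 68.3% with 24, against 51.0% with 5 for Dapl1 and 44.0% with 5 for Ctss. The window of Ldhb, also called lower, was 57.3% with 17. The median over 32851 windows of the same length was 52.7% with 7. These leave out a chromosome that holds no member, and are called all windows below. No median was taken over the windows of tested genes alone. A TATAAA stood at position -28 from the start in Igfbp4 and at -29 in Dapl1, and on the opposite strand at -233 in Ctss. It occurred in 13.6% of all windows and in 6.78% of the 11344 windows of tested genes. Actn1 held a pair of GGGCGGG matches at -49 and -43 that share a base, and Dapl1 held a single match at -44, where 25.6% of all windows and 45.7% of those of tested genes held at least 1. The FOXO letters were found among the members only at -164 in Dapl1 (held by 3.65% of all windows and 2.62% of those of tested genes). The SOX letters were found only at -237 in the upstream window of Nsg2 (5.85% of all windows and 3.83% of those of tested genes). The TCF/LEF, AP-1 and ETS letters, held by 3.73%, 7.81% and 8.86% of all windows and by 2.52%, 4.61% and 19.1% of those of tested genes, were in none of the 10 windows of the 8 members that had one.

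Between genes, levels were compared as TPM, the RSEM measure of relative transcript abundance, which corrects for transcript length. Igfbp4 was the most abundant member in both organs, at 550 ± 45.2 TPM in spleen and 1212 ± 72.3 TPM in mLN (SD, n = 3 each), which ranked 189th and 119th among the genes tested. Actn1 followed in both organs, at 289 ± 7.41 and 395 ± 29.3 TPM. In spleen the order went on with Ctss at 242 TPM, Nsg2 at 219 TPM, Dapl1 at 166 TPM, Themis at 89.3 TPM and Ldhb at 51.9 TPM (47.1 TPM in mLN), and the ranges of neighbours did not overlap. In mLN Nsg2 (267 TPM) stood above Ctss (227 TPM), and Dapl1 (120 TPM) and Themis (93.0 TPM) overlapped in range. Sox4 and Cd24a were far below the rest, at 5.26 ± 0.871 and 3.0 ± 1.48 TPM in spleen, where their ranges overlapped, and at 6.22 ± 1.0 and 1.43 ± 0.821 TPM in mLN, where they did not.

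**Figure D1:**
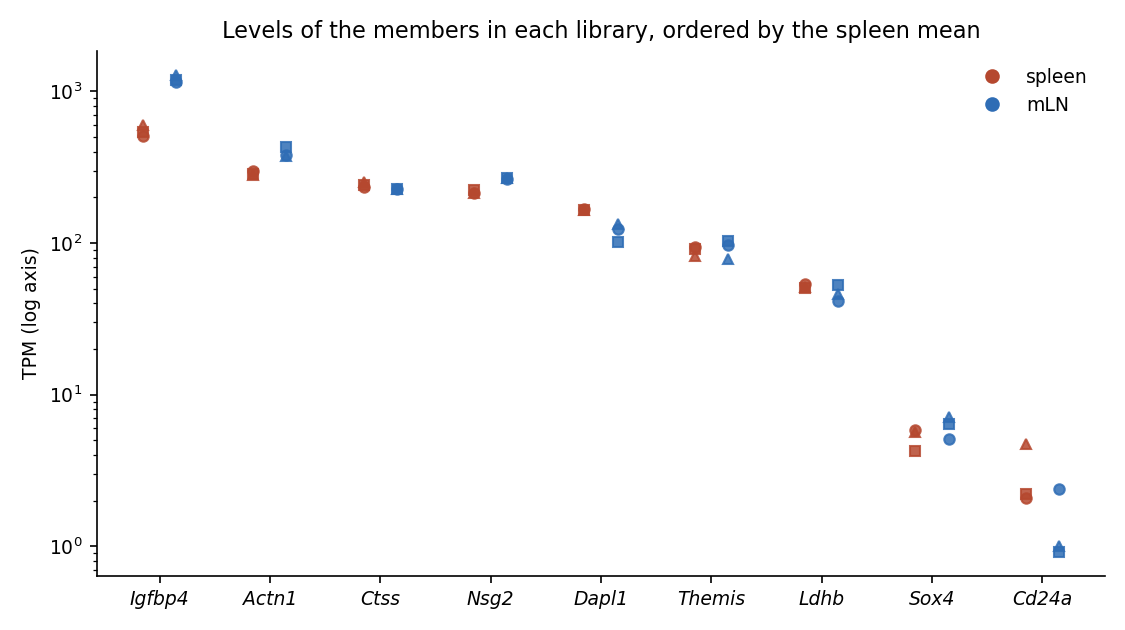
Level of each of the 9 genes in TPM (log axis) in the 3 spleen and 3 mLN libraries, ordered by the spleen mean, with circle, square and triangle for replicates 1, 2 and 3. Igfbp4 lies between 511 and 599 TPM in spleen and between 1152 and 1292 TPM in mLN, while Sox4 and Cd24a lie under 10 TPM in every library.

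Within a gene, libraries were compared on counts scaled to CPM with TMM factors, and differences were tested with edgeR's quasi-likelihood test and adjusted by Benjamini-Hochberg across the 12486 genes. At an adjusted p under 0.05, 7 of the 9 members were called, against 29.6% of all tested genes. Of these, 2 were higher in mLN (Igfbp4 and Actn1), where 16.1% of all tested genes were. The other 5 were lower (Dapl1, Cd24a, Ctss, Ldhb and Themis), where 13.5% of all tested genes were, and Nsg2 and Sox4 did not pass. The median log2 fold change, mLN minus spleen, was -0.23 over the members and -0.012 over all tested genes. On the deposited TPM values the median of all tested genes shifted to 0.21, and 3 members were then higher and 1 lower, against 22.1% and 3.08% of all tested genes. With each library's log2 TPM centred on its median, 1 member was higher and 3 were lower (6.39% and 7.58% of all tested genes). CPM values of 6 members, 2 higher and 4 lower in mLN, did not overlap between the organs. The same held for 41.8% of tested genes, 21.5% higher and 20.3% lower. The members were proposed with results of these data in view, so nothing is read from how their counts compare with these shares.

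**Figure D2:**
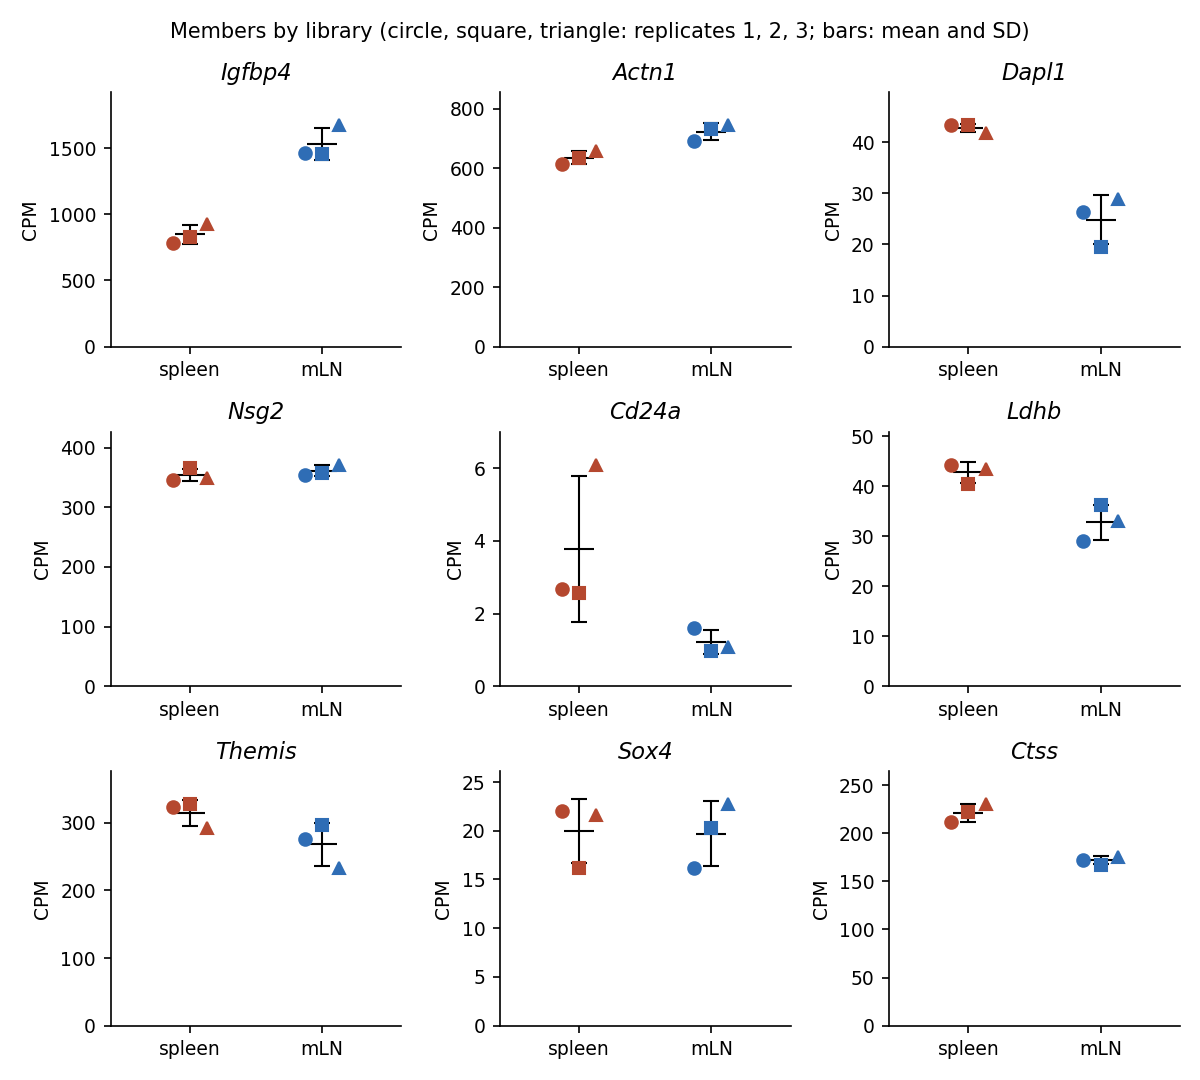
CPM of each gene in each library, on linear axes that start at 0, with circle, square and triangle for replicates 1, 2 and 3 and bars for the mean and SD of the 3 libraries of an organ. Igfbp4 and Actn1 sit higher in every mLN library, Dapl1, Cd24a, Ldhb and Ctss sit lower in every mLN library, and Nsg2, Themis and Sox4 overlap.

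Igfbp4 encodes a secreted protein that binds insulin-like growth factors and generally restrains their action. It is protein-coding and sits on chromosome 11, plus strand, from 99041244 to 99054392 of mm10 (ENSMUSG00000017493). Its 3 spleen libraries held 785, 829 and 929 CPM, and its 3 mLN libraries held 1465, 1458 and 1673 CPM. The lowest mLN library thus stood well above the highest spleen library. The log2 fold change was 0.85 with a standard error of 0.067, a 1.81-fold rise with a 95% interval of 1.64 to 1.99 (adjusted p = 1.29e-08, edgeR's quasi-likelihood test), and 30 genes of all tested had a smaller p. Its call held in every one of the alternatives run, with log2 fold changes between 0.69 and 1.14. Among the 297 genes with at least 500 CPM in mLN, a level chosen after the values were seen, only Rnf213, a large ubiquitin ligase, was called higher with a larger log2 fold change (0.86).

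No other IGF-binding protein gene was expressed at a comparable level in these libraries. Of 18 genes of the IGF axis, 9 had no count in any library, namely Igfbp1, Igfbp2, Igfbp3, Igfbp5, Igfbp7, Igfals, Pappa, Pappa2 and Stc1. Pappa encodes the protease known for cleaving the Igfbp4 protein. Igfbp6 averaged 0.042 CPM in spleen and had no count in mLN, and the ligand genes Igf1 and Igf2 averaged at most 0.082 CPM in either organ. These means lie under the limit that 3 counts set. In a single library, mLN replicate 1, Igf2 passed it, at 0.245 CPM against a limit of 0.186 CPM. The tested genes of the axis were the receptors Igf1r, Insr and Igf2r and the adaptor Irs2, of which 1 rose and 0 fell. Igf2r, the receptor that clears IGF2 and carries lysosomal enzymes, averaged 134 CPM in the spleen libraries against 189 CPM in mLN, a 1.41-fold rise (adjusted p = 2.38e-05, edgeR). With the trend of fold change on transcript length removed, 0 of these genes passed. Igf1r, the signalling receptor, stood at a mean of 25.6 CPM (spleen) and 28.3 CPM (mLN) (adjusted p = 0.412, edgeR).

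Stromal cells also transcribe Igfbp4. Of 15 stromal and endothelial markers 8 had no count in any library, the collagen gene Col1a1 averaged 0.060 CPM (spleen) and 0.485 CPM (mLN), and Dcn, Ccl19 and Ccl21a were at 0. The exception was Pecam1, at a mean of 242 CPM (spleen) and 208 CPM (mLN). The endothelial gene Cdh5 averaged 0.047 CPM (spleen) and 0.025 CPM (mLN), and Lyve1 and Madcam1 were at 0. Igfbp4 had means of 848 ± 73.5 CPM (spleen) and 1532 ± 122 CPM (mLN; SD over 3 libraries). The part of stromal cells in its difference was not tested.

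Actn1 encodes alpha-actinin-1, which cross-links actin filaments and ties them to integrins at the membrane. The gene sits on chromosome 12, minus strand, from 80167547 to 80260371 (ENSMUSG00000015143). The spleen libraries held 614, 634 and 659 CPM and the mLN libraries 692, 733 and 744 CPM, so the groups did not overlap, but the gap between them was narrow. The rise was 1.14-fold, with a 95% interval of 1.05 to 1.23 (log2 fold change 0.19, standard error 0.056, adjusted p = 0.0145, edgeR). It missed the threshold without spleen replicate 1 (adjusted p = 0.104), spleen replicate 2 (0.0865) or mLN replicate 2 (0.0527), with upper-quartile factors (0.0636), with the length trend removed (log2 fold change 0.12, adjusted p = 0.105) and on median-centred TPM (0.0828), while on TPM as deposited its log2 difference was 0.44 and with the GC trend removed 0.11, both past the threshold. Actn1 was the only member with fractional expected counts. Its exons share 363 bases with the antisense gene Gm47766, which held 85.8 expected counts over all 6 libraries, and 88 bases with Gm47767, which held 0.

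Most tested genes on a list of others that join integrins to actin were called higher too. The list was chosen with earlier results of these data known, so nothing is read from its count. Of 13 tested genes of this list 10 were higher and 0 lower in mLN (16.1% and 13.5% of all tested genes). The median log2 fold change of the list was 0.34. Tln1, the talin that activates integrins, rose 1.57-fold (adjusted p = 6.18e-08) and Vasp, which promotes actin filament growth, 1.55-fold (adjusted p = 2.46e-06, both edgeR). Actn4, the other widely expressed alpha-actinin gene, went from 219 to 269 CPM (adjusted p = 0.00181, edgeR). The muscle forms Actn2 and Actn3 were at 2.75 and 0 CPM in spleen. Under the scalings run, from 9 to 10 genes of the list were higher and 0 lower.

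Dapl1, a relative of the death-associated protein gene Dap, is a transcript of resting naive T cells. The gene sits on chromosome 2, plus strand, from 59484653 to 59505020 (ENSMUSG00000026989). Its spleen libraries were close together at 43.3, 43.3 and 41.9 CPM, and its mLN libraries were lower and more spread, at 26.4, 19.5 and 28.8 CPM. Dapl1 fell to 0.584 of its spleen level, with a 95% interval of 0.485 to 0.703 (log2 fold change -0.78, standard error 0.129, adjusted p = 9.46e-05, edgeR). All alternatives kept the call. The deposited transcript length was 573 nt in every library, and Dapl1 was the shortest member. With the length trend removed its log2 fold change was -0.38 (adjusted p = 0.0217, edgeR). On TPM as deposited it was -0.48, and on median-centred TPM it was -0.72 (adjusted p = 0.00509, limma). Igfbp4 and Dapl1, both naive-cell transcripts, thus differed in opposite directions between the organs.

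Nsg2 encodes a protein of vesicle trafficking best known from neurons and is also transcribed in T cells. The gene sits on chromosome 11, plus strand, from 32000463 to 32059202 (ENSMUSG00000020297). The spleen libraries held 346, 365 and 350 CPM and the mLN libraries 354, 357 and 371 CPM, and the groups overlapped. The log2 fold change was 0.030 with a standard error of 0.057 (adjusted p = 0.739, edgeR), and the 95% interval of the ratio ran from 0.941 to 1.11. On TPM, where the median of all genes shifted upward, Nsg2 passed at a log2 difference of 0.29 (adjusted p = 0.00761, limma), and on median-centred TPM it was 0.044 (adjusted p = 0.642). With upper-quartile factors it turned to -0.016. The relatives Nsg1 and Caly were at most at 0.302 CPM in either organ.

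**Figure D3:**
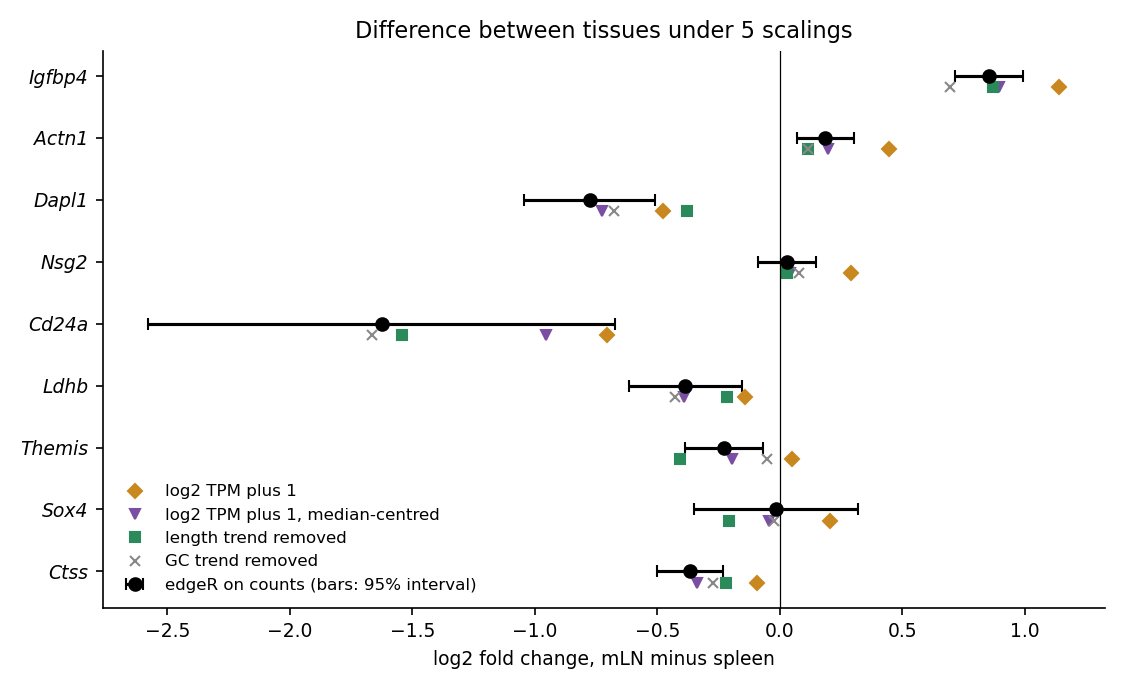
Log2 fold change of each gene, mLN minus spleen, from edgeR on counts (black, bars are 95% intervals) and under 4 other scalings (coloured points without intervals). Igfbp4 lies right of 0 and Dapl1 left of 0 under all 5, the edgeR values of Nsg2 and Sox4 lie near 0, Themis (-0.23) and Sox4 have points on both sides of 0, and the deposited TPM value lies right of the edgeR value for every gene.

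Cd24a, Sox4 and Themis are genes of thymocytes and young T cells. Cd24a encodes a small glycoprotein anchored in the membrane, abundant on thymocytes, B cells, neutrophils and red cell precursors, and sits on chromosome 10, plus strand, from 43578284 to 43584265 (ENSMUSG00000047139). It was scarce, with 38, 45 and 98 expected counts in the spleen libraries and 26, 13 and 22 in the mLN libraries, or 2.68, 2.55 and 6.10 CPM against 1.59, 0.975 and 1.09 CPM. Every mLN library was lower than every spleen library, and spleen replicate 3 was more than 2-fold above the other spleen libraries. The fitted ratio was 0.325, with a 95% interval of 0.168 to 0.628 (log2 fold change -1.62, standard error 0.458, adjusted p = 0.00979, edgeR). Without spleen replicate 3 the log2 fold change was -1.11 and the adjusted p was 0.153, and on TPM the call was lost too (log2 difference -0.71, adjusted p = 0.154, limma; -0.95 and 0.0869 when centred). Among cell types known to express Cd24a, all 7 tested neutrophil markers and 7 of 12 B cell markers were lower in mLN, among them Cd79b at 0.243 and Ms4a1 at 0.291 of the spleen level. Neutrophil markers summed to 45.4 CPM in spleen replicate 3, the lowest of the spleen libraries, B cell markers to 548 CPM, the highest, and erythroid markers to 0.747 CPM. Their part in the Cd24a difference was not tested.

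Sox4 encodes a transcription factor of the SOX family that acts in lymphoid progenitors. It has 1 transcript in the files and sits on chromosome 13, minus strand, from 28948919 to 28953713 (ENSMUSG00000076431). The spleen libraries held 22.0, 16.2 and 21.7 CPM and the mLN libraries 16.2, 20.2 and 22.7 CPM, and the groups overlapped throughout. The log2 fold change was -0.014 with a standard error of 0.161 (adjusted p = 0.962, edgeR), and the 95% interval of the ratio, 0.785 to 1.25, was the widest among members above 10 CPM. Its direction changed with the library left out and with the scaling, from -0.21 to 0.24. Gm26735, a noncoding gene on the opposite strand, shares 2616 exonic bases with Sox4. It is not among the 55487 identifiers listed, so it has no count of its own. The kit was directional, but the strand setting used in counting is not stated, so reads of both genes may be combined. Of the other Sox genes listed only Sox12 was tested, at a mean of 1.67 CPM (spleen) and 0.691 CPM (mLN) (adjusted p = 0.125, edgeR).

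Themis encodes a T cell protein that binds Grb2 and tunes T cell receptor signals during positive selection. The gene sits on chromosome 10, plus strand, from 28668360 to 28883818 (ENSMUSG00000049109). The spleen libraries held 323, 328 and 292 CPM and the mLN libraries 276, 296 and 233 CPM, and the highest mLN library overlapped the lowest spleen library. The ratio was 0.853, with a 95% interval of 0.764 to 0.953 (log2 fold change -0.23, standard error 0.076, adjusted p = 0.0286, edgeR). The call was lost without spleen replicate 1 (adjusted p = 0.0878), spleen replicate 2 (0.116) or mLN replicate 3 (0.105), with the GC trend removed (log2 fold change -0.052, adjusted p = 0.436) and on median-centred TPM (adjusted p = 0.282). On TPM as deposited the difference was 0.051, and with the length trend removed it was -0.41. The CPM of Themis had coefficients of variation of 6.07% in spleen and 11.9% in mLN, against 2.91% and 2.51% for Nsg2, a gene of similar CPM.

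Among partners of Themis and other genes of proximal receptor signalling, taken as 1 list, more genes were higher than lower. Of 13 tested, 6 were higher and 2 lower in mLN (16.1% and 13.5% of all tested genes). The counts were 9 and 1 on TPM and 4 and 1 on median-centred TPM. Plcg1, the phospholipase activated downstream of the receptor, rose 1.42-fold (adjusted p = 7.22e-07) and Vav1, a guanine nucleotide exchange factor, 1.28-fold (adjusted p = 1.84e-04, both edgeR). Themis2, the relative expressed in B cells and macrophages, fell from 3.83 to 0.364 CPM (adjusted p = 5.53e-05, edgeR). The sums of B cell markers and of monocyte and macrophage markers were also lower in mLN, as listed above. Their part in the Themis2 difference was not tested. The receptor-associated kinase gene Lck stood at 919 and 968 CPM (adjusted p = 0.344, edgeR).

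The remaining thymocyte and recent emigrant genes gave no common direction. Of 9 tested, 2 were higher and 1 lower (16.1% and 13.5% of all tested genes), with a median log2 fold change of 0.24. On TPM 2 were higher and 0 lower. Satb1, a chromatin organiser of thymocytes, rose 1.28-fold (adjusted p = 3.31e-05) and Tox, a factor required for CD4 lineage development, rose 1.40-fold (adjusted p = 0.00253), while Cd1d1 fell to 0.789 of its spleen level (adjusted p = 0.0143, all edgeR). The recombination genes Rag1 and Rag2 averaged 1.16 and 2.39 CPM in spleen and 2.70 and 2.01 CPM in mLN, with adjusted p-values of 0.733 and 0.756 (edgeR). The Rag1 means describe no library. Its spleen replicates 1, 2 and 3 held 0, 0 and 3.49 CPM, and its mLN replicates 3.80, 0 and 4.31 CPM. Dntt, which adds bases at receptor joints, stood at a mean of 15.9 CPM (spleen) and 13.2 CPM (mLN) (adjusted p = 0.245, edgeR).

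Ldhb encodes the lactate dehydrogenase subunit that prevails in tissues using lactate, and marks naive T cells in transcript atlases. The gene sits on chromosome 6, minus strand, from 142490249 to 142507957 (ENSMUSG00000030246). The spleen libraries held 44.3, 40.5 and 43.5 CPM and the mLN libraries 29.1, 36.2 and 33.0 CPM, without overlap. Ldhb fell to 0.766 of its spleen level, with a 95% interval of 0.653 to 0.899 (log2 fold change -0.38, standard error 0.111, adjusted p = 0.0115, edgeR). The call was lost without mLN replicate 1 (adjusted p = 0.0753), with the length trend removed (log2 fold change -0.22, adjusted p = 0.177) and on TPM (-0.14, adjusted p = 0.383, limma). On median-centred TPM the call of Ldhb narrowly held (-0.39, adjusted p = 0.0498, limma). Its partner gene Ldha, the glycolytic form, stood at a mean of 487 CPM (spleen) and 462 CPM (mLN) (adjusted p = 0.349, edgeR). Of 12 tested genes of lactate and pyruvate handling 0 rose and 4 fell (16.1% and 13.5% of all tested genes), against 3 and 0 on TPM. The counts were 0 and 1 when TPM was centred, and also 0 and 1 with the length trend removed. The 4 included Mpc1, a subunit of the mitochondrial pyruvate carrier, at 0.649 of its spleen level (adjusted p = 0.00136), and the pyruvate dehydrogenase genes Pdha1 at 0.804 (adjusted p = 0.00157) and Pdhb at 0.795 (adjusted p = 0.00566, all edgeR).

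Ctss encodes cathepsin S, the lysosomal protease that trims the invariant chain in antigen-presenting cells. The gene sits on chromosome 3, plus strand, from 95526786 to 95556403 (ENSMUSG00000038642). The spleen libraries held 212, 222 and 230 CPM and the mLN libraries 172, 167 and 175 CPM, and the groups were tight and apart. Ctss fell to 0.776 of its spleen level, with a 95% interval of 0.707 to 0.852 (log2 fold change -0.37, standard error 0.065, adjusted p = 1.81e-04, edgeR). On TPM the difference was -0.091 and did not pass (adjusted p = 0.296, limma), and on median-centred TPM it was -0.34 (adjusted p = 0.00892). With the length trend removed it was -0.22 (adjusted p = 0.0110, edgeR). Leaving out any library kept the call. The drop in the mean, from 221 ± 9.17 to 172 ± 4.14 CPM (SD, n = 3 each), came with the lower sums of monocyte, neutrophil and B cell markers given above and with dendritic cell markers at 6.60 to 10.1 CPM in spleen and 0.750 to 1.17 CPM in mLN. Their part in it was not tested.

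Of 15 tested cathepsins and partners 11 were lower and 1 higher in mLN (13.5% and 16.1% of all tested genes). The counts were 4 and 2 on TPM and 6 and 1 on median-centred TPM. Cd74, the invariant chain that cathepsin S cleaves, fell from 62.5 to 14.5 CPM (adjusted p = 3.12e-10), and Ctsd, an aspartic protease present in most cells, fell to 0.809 of its spleen level (adjusted p = 5.59e-04, both edgeR). The exception was Ctsw, a protease of cytotoxic lymphocytes, which rose 1.46-fold (adjusted p = 1.83e-04, edgeR).

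**Figure D4:**
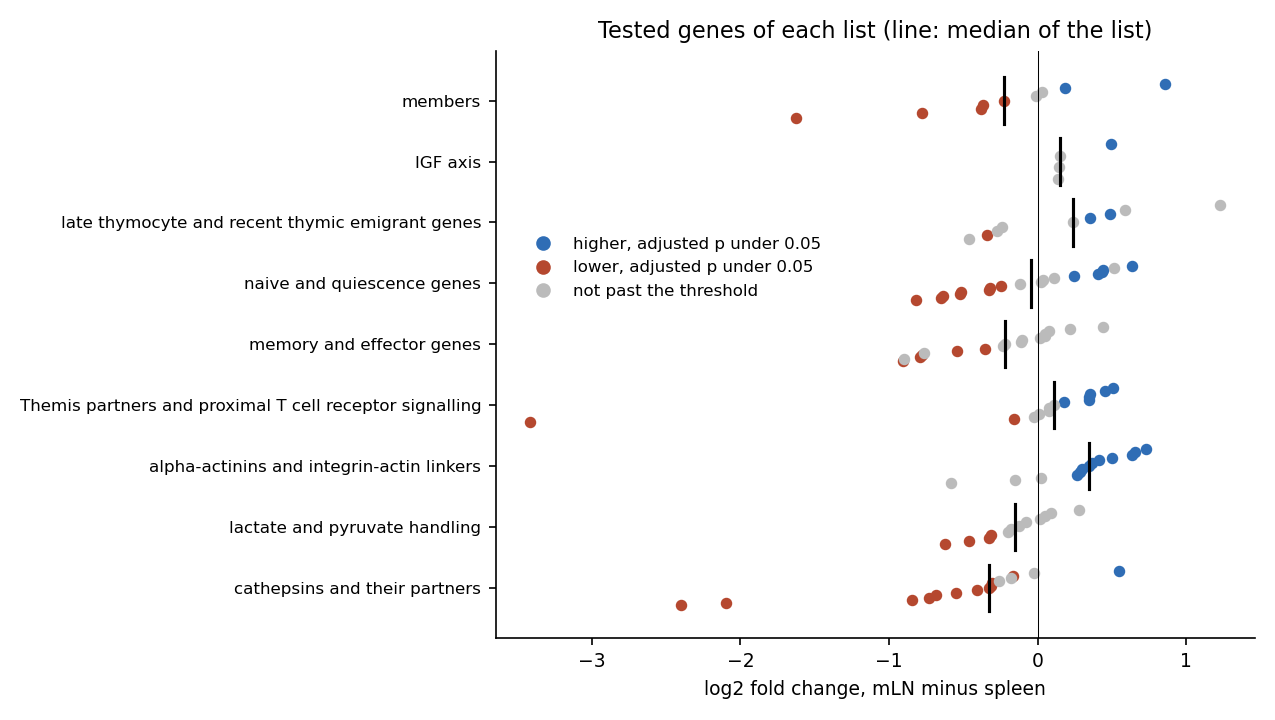
Log2 fold change, mLN minus spleen, of every tested gene of the members and of 8 related lists, coloured by the call at an adjusted p under 0.05 from edgeR's quasi-likelihood test, with a line at each list's median. Of the integrin and actin linkers 10 of 13 were called higher, of the cathepsins and partners 11 of 15 were called lower, and the members lie on both sides.

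Genes of the naive state and of memory cells place the members among their surroundings. Of 18 naive and quiescence genes other than the members, all tested, 5 were higher and 8 lower (16.1% and 13.5% of all tested genes). On TPM the counts were 9 and 5, and when centred 4 and 8. The 3 with the smallest p all fell, namely Il7r, the receptor of the survival cytokine IL-7, to 0.568 of its spleen level, Ms4a4b to 0.638 and Slfn2, a regulator of quiescence, to 0.642 (adjusted p = 1.29e-08, 9.31e-08 and 1.60e-07, edgeR). Tcf7 and Lef1, the factors that maintain naive identity, were among the 5 that rose, from 983 to 1305 CPM and from 370 to 499 CPM. Igfbp4 and Actn1 thus moved in the direction of Tcf7 and Lef1, and Dapl1 and Ldhb in that of Il7r. Of 17 tested memory and effector genes 0 rose and 5 fell (16.1% and 13.5% of all tested genes), against 1 and 4 on TPM. The fitted mLN to spleen ratio was 0.533 for S100a10, 0.577 for the galectin gene Lgals1 and 0.686 for Crip1.

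The deposited length, an average over transcripts weighted by abundance, was constant for Dapl1, Sox4 and Ctss. It ran from 2741 to 3043 nt in spleen and from 2734 to 3063 nt in mLN for Actn1, from 4378 to 4530 nt and 4359 to 4463 nt for Themis, and from 2096 to 2117 nt and 2044 to 2100 nt for Igfbp4, with overlap between the organs in each case. For Cd24a it was 1229 nt in mLN replicate 1 and 1633 nt in spleen replicate 2, and 1816 nt in the other libraries.

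The genes whose profile over the 6 libraries lay closest to that of Igfbp4 were Prex1, Myh9, Notch1, Ski and Pprc1. The measure was the root mean square difference of log2 CPM after each gene was centred on its mean, over 6630 other genes with at least 20 CPM. It was 0.024 for Prex1, an activator of Rac, 0.032 for Myh9, the heavy chain of nonmuscle myosin, and 0.034 for the receptor gene Notch1, against a median of 0.426 over all candidates. For Ctss the closest were Pla2g16, Emg1, Rpl10a, Rpl7a and Emc3, between 0.014 and 0.030 against a median of 0.239. Values of the ribosomal protein genes Rpl10a and Rpl7a are uncertain, as such genes have near-identical pseudogene copies. As the measure takes in the difference between the organs, these are genes that differed by a like amount, from 1.76-fold to 1.85-fold higher for those near Igfbp4 and from 0.751 to 0.779 of the spleen level for those near Ctss.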

How the data were processed

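Polyadenylated RNA of naive CD4+ T cells was sequenced in 3 spleen and 3 mLN libraries, which per the labels' protocols were made with a directional kit. STAR, RSEM and mm10 are named in the submitters' processing notes, without versions. Per the file headers, the authors deposited RSEM output with an expected count for each gene, which is an estimate and can be fractional, and with TPM, which is scaled by effective length. The deposited FPKM values were not used. Deposited transcript lengths are in nucleotides. Of 55487 identifiers 55141 were given a symbol, and coordinates came from GENCODE vM21 (GRCm38).

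Expected counts were rounded, filtered with filterByExpr by organ, scaled by TMM factors and tested two-sided in edgeR by robust quasi-likelihood F tests, with organ as the only term and Benjamini-Hochberg adjustment over 12486 genes. Standard errors were obtained by dividing the absolute log2 change by the root of its F, and intervals cover 95%. TPM was tested with limma on log2 of TPM plus 1, a scale that understates changes of low genes. Length and GC trends were removed per library with lowess (span 0.3), the GC trend being added after the data had been seen. The software was edgeR 4.0.16, DESeq2 1.42.0 and limma 3.58.1 under R 4.3.3, with pandas 2.3.3, matplotlib 3.10.9 and numpy 2.4.6 under Python 3.11.15. The edgeR test and the removal of the length trend were tried on counts simulated with the dispersions fitted here. Such counts follow the model of the test, so the trial does not check that model against these libraries. Pairs of libraries of an organ differed by more than counting noise (chi-square per degree of freedom 5.60 to 11.9), so none was treated as the same library deposited again. This does not show that they are separate biological samples.

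The members and all lists were chosen with earlier results of these data known. Nothing is therefore read from how their counts compare with the shares of all tested genes. Named genes are the members, up to 3 tested genes with the smallest p of each list, and the 5 genes nearest in profile to Igfbp4 and to Ctss. An item that this rule names is not reported here. Other genes named were chosen after their values had been seen. Floors of 3 counts cover counting error only, while intervals of fold changes come from the spread between libraries. The marker lists not described beside a result were those of T cell identity (2 of 10 tested higher, 4 lower), CD8 T and natural killer cells (1 of 7 higher, 0 lower) and regulatory T cells (0 of 5 higher, 1 lower). Across all tested genes 16.1% were higher and 13.5% lower.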

Additional observations from a re-analysis of the deposited data

How the results depend on the processing

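The calls of Igfbp4 and Dapl1 held under all 20 alternatives, which were other factors and filters, DESeq2, limma-voom, TPM, a replicate block, trend removal, a stricter threshold and the omission of each library. Cd24a did not pass the strict filter (50 counts in 3 libraries) and has no value there. Upper-quartile factors left only Igfbp4 higher among the members, with Actn1 at 0.14 (log2 fold change, as below) and not called, and Nsg2 at -0.016. With limma-voom Sox4 was at 0.0084. On log2 of TPM plus 1, 384 genes and 1 member (Dapl1) were lower. Nsg2 was at 0.29, Cd24a at -0.71, Ldhb at -0.14, Themis at 0.051, Sox4 at 0.20 and Ctss at -0.091. With 0.1 added in place of 1, 389 genes and 1 member (Dapl1) were lower. Nsg2 was then at 0.29, Cd24a at -1.04, Ldhb at -0.15, Themis at 0.051, Sox4 at 0.24 and Ctss at -0.092. Median-centred TPM gave 798 genes higher and 947 lower, 1 member higher (Igfbp4) and 3 lower. Actn1 at 0.20, Cd24a at -0.95 and Themis at -0.20 did not pass there. TPM with 0.1 or 1 added includes the common shift of all genes, and the cause of the other changes was not tested. Removal of the length trend left 1 member higher (Igfbp4), while Actn1 at 0.12 and Ldhb at -0.22 did not pass. Removal of the GC trend left Themis at -0.052. At a threshold of 0.01, 1069 genes were lower, and 1 member was higher and 3 lower, as Actn1 (0.19), Ldhb (-0.38) and Themis (-0.23) missed it.

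Leaving out each library in turn gave 1500 to 1971 genes higher and 1324 to 1710 lower, 1 to 2 members higher and 4 to 5 lower. Log2 fold changes then ran from 0.16 to 0.21 for Actn1, from -1.86 to -1.11 for Cd24a, from -0.46 to -0.31 for Ldhb, from -0.31 to -0.15 for Themis, from -0.16 to 0.11 for Sox4, from 0.78 to 0.91 for Igfbp4, from -0.91 to -0.64 for Dapl1, from 0.00070 to 0.042 for Nsg2 and from -0.40 to -0.35 for Ctss. The replicate numbers are shared by label only. Deviations of same-numbered libraries correlated at 0.0097, -0.0034 and 0.054 across genes, and not every library correlated best with its own number. With the replicate block 2566 genes were higher and 2139 lower, with 2 members higher and 5 lower and Igfbp4 at 0.85. With the block and the length trend removed together Ldhb was at -0.22. Depth limits Cd24a, with under 100 counts in every library.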
